A study of Mus musculus with 14 samples.

Results

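The comparison described here set cells of a mouse leukaemia line in which Ogdh had been knocked down for 4 days against cells of the same line and day that carried a control hairpin. It rests on 6 of the 14 libraries of the series, chosen by their labels: 2 libraries with the hairpin shOgdh346, 2 with the hairpin shOgdh2081 and 2 with the control hairpin shRen713. All 6 came from KL974, labelled murine acute myeloid leukaemia (AML), with the genotype Trp53R172H, shMll3 and shNf1, so that the control cells carried the mutant Trp53 allele and the hairpins against Mll3 (Kmt2c) and Nf1 as well. The cells grew with murine IL3, IL6 and SCF, carried a lentiviral hairpin, inducible by doxycycline and linked to blue fluorescent protein (BFP), and were sorted as BFP positive on day 4 of doxycycline. KL974 is a single line, the labels do not say that replicates were separate cultures, and p-values therefore measure the spread between these libraries, which may be technical. The other 8 libraries, which entered the fit and so the estimate of spread behind each p-value, and served as further controls, are control-hairpin cells at day 0 and, BFP negative or positive, at day 2, and BFP negative cells at day 4. Levels come from RNA of whole sorted populations, in which a lower share of cells of a type and less RNA per cell cannot be told apart.

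Ogdh encodes the first (E1) subunit of the 2-oxoglutarate dehydrogenase complex, which sits in the mitochondrial matrix and turns 2-oxoglutarate into succinyl-CoA in the tricarboxylic acid (TCA) cycle. The second and the third subunit are encoded by Dlst and Dld. Succinyl-CoA is oxidised further in the cycle and is also the substrate from which heme synthesis starts in mitochondria. 2-oxoglutarate is made and used by transaminases and is the co-substrate of a large family of dioxygenases that hydroxylate proteins and demethylate histones, DNA and RNA.

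The 6 libraries held from 913482 to 5680900 counts, and the depth differed within each Ogdh hairpin, with 5680900 and 1159021 counts for shOgdh346, 913482 and 4627632 counts for shOgdh2081, and 3191961 and 2148243 counts for the control hairpin. Of 53465 genes in the table, 10791 passed the filter on low counts and were tested. Replicates of a group differed more than counting noise alone would give, with a chi-square per degree of freedom of 1.27 for shOgdh346, 1.38 for shOgdh2081 and 1.25 for the control hairpin. The label AML was only partly borne out by markers. Mpo, Elane, Cebpa, Itgam, Lyz2, Csf3r and Flt3, which mark granulocytes, monocytes or blood progenitors, had 0 counts summed over the 6 libraries. A count of 0 allows up to 3 (95% confidence, counting error only). Other genes of the monocyte and macrophage list were present: Zeb2 had 1422 counts, Csf2ra 210, Ccr2 92 and Cd68 89. The pan-leukocyte gene Ptprc (CD45) lay between 10.0 and 15.5 counts per 1000000 (CPM) of the whole library, and the myeloid factor Spi1 had 22 counts in all. Kit, the SCF receptor, lay between 483 and 554 CPM, the erythroid factor Gata1 between 295 and 344 CPM, Klf1 between 187 and 214 CPM, and the histidine decarboxylase gene Hdc of mast cells and basophils between 317 and 348 CPM. Of lists of markers for other blood cells, 14 of 20 neutrophil and 6 of 11 dendritic cell genes were at 0 in all 6 libraries. So were 8 of 10 B cell and 7 of 12 T and NK cell genes. A smaller share was at 0 in other lists: 10 of 20 monocyte and macrophage genes and 2 of 12 megakaryocyte genes. The same held for 4 of 14 mast cell, basophil and eosinophil genes and 8 of 18 stem and progenitor genes. KL974 is called by its name below.

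Ogdh was lower with both hairpins. It had 60.8 and 60.8 CPM in shOgdh346 libraries, 51.5 and 52.3 CPM in shOgdh2081 libraries, against 247.5 and 266.7 CPM in control cells. Each Ogdh hairpin library lay far below both controls, and also below all 10 control-hairpin libraries of the series, which spanned 210.8 to 312.5 CPM. Over both hairpins Ogdh fell by 78.0% (log2 fold change -2.19 ± 0.09, adjusted p = 1.63e-30), where CPM are scaled to the counts of tested genes, ± gives the standard error, and p is adjusted over all genes by the Benjamini-Hochberg method. The hairpins did not differ detectably from each other, with a log2 difference of shOgdh346 minus shOgdh2081 of 0.22 (95% interval -0.05 to 0.49, adjusted p = 0.767).

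**Figure D1:**
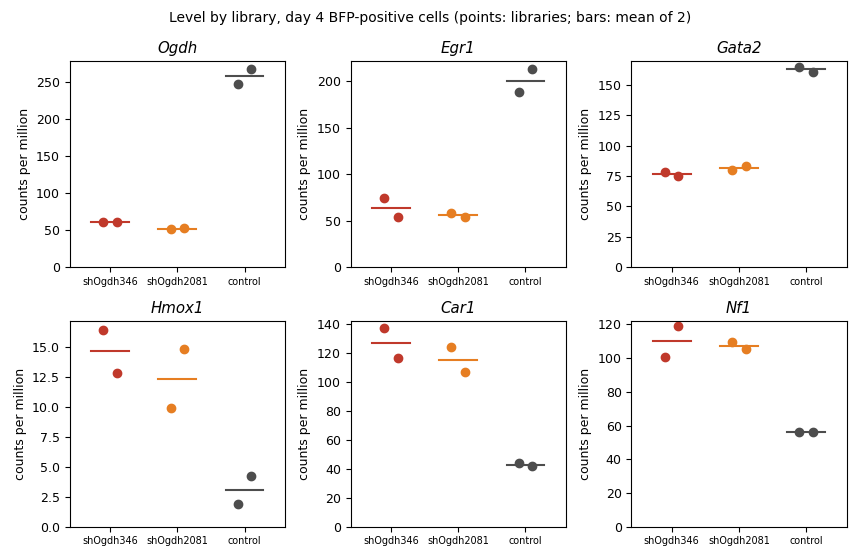
Level of 6 genes in CPM (vertical axis, from 0) in each library of shOgdh346, shOgdh2081 and control BFP positive cells at day 4, with points for libraries and bars for the mean of 2. Ogdh, Egr1 and Gata2 lay lower in all 4 Ogdh hairpin libraries than in both control libraries, and Hmox1, Car1 and Nf1 higher.

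The question for the rest of the transcriptome was which genes moved when Ogdh fell, and whether both hairpins moved them. Over both hairpins 1735 genes changed at an adjusted p under 0.05, 16.1% of those tested, of which 833 rose (7.72%) and 902 fell (8.36%). Changes were mostly small: 99 of the rises and 25 of the falls exceeded 2-fold. Counts in the gene lists below are to be read beside the shares of 7.72% and 8.36%. Over all genes tested, 17.1% had all 4 Ogdh hairpin libraries above both controls and 19% below both. Of the 833 rises 772 lay above both, and of the 902 falls 856 lay below both, so that a lack of overlap adds little to a call. The count rested in part on the control libraries, being 461 without control replicate 1 and 936 without control replicate 2, and DESeq2 called 700. Tested alone, shOgdh346 gave 602 rises (5.58%) and 604 falls (5.6%), in sum 11.2% of genes, and shOgdh2081 650 rises (6.02%) and 597 falls (5.53%), in sum 11.6%. These contrasts share both control libraries, so that a chance deviation of a control enters both. Called with each hairpin alone in a single direction were 714 genes (6.62% of those tested), 364 higher (3.37%) and 350 lower (3.24%), which is 59.2% of the shOgdh346 list, 57.3% of the shOgdh2081 list and 41.2% of the 1735. Left-out libraries moved that count to 204 (control replicate 1), 404 (control replicate 2), 293 (shOgdh346 replicate 1) and 260 (shOgdh2081 replicate 2). With edgeR 0 genes were called in opposite directions with the hairpins, and likewise 0 at an unadjusted p under 0.05 with each and 0 with DESeq2. Opposite calls need a wide gap between the hairpins, as the controls are shared. These counts of 0 therefore say little about agreement.

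**Figure D2:**
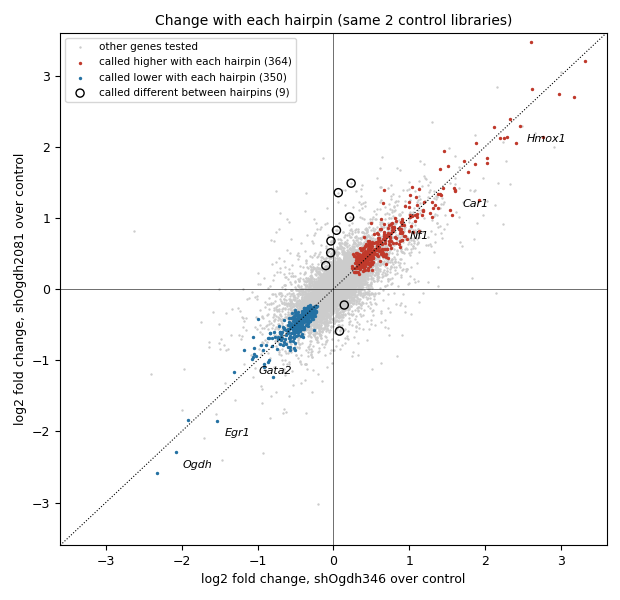
Log2 fold change over control with shOgdh346 (horizontal axis) and with shOgdh2081 (vertical axis) for the 10791 genes tested, both against the same 2 control libraries. Red and blue points mark the 364 genes called higher and the 350 called lower with each hairpin, open circles the 9 genes called different between the hairpins, and the dotted line equal change.

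Few genes were called different between the hairpins themselves, in a test of 2 libraries against 2 that can miss real differences. A direct test of shOgdh346 against shOgdh2081 called 9 genes (0.0834%), 2 higher (0.0185%) and 7 lower (0.0649%) with shOgdh346, while 786 passed an unadjusted p under 0.05. The count was 0 without shOgdh346 replicate 1 and 24 without shOgdh2081 replicate 2. Among the 714 genes that both hairpins called, edgeR called 0 as different between them, 33 at an unadjusted p under 0.05 and DESeq2 0 of its 257. These genes had been selected for the same call with both hairpins, which by itself makes a difference between them less likely. A gene called with a single hairpin was also rarely called different: of 492 called only with shOgdh346 and 533 called only with shOgdh2081, edgeR called 0 and 8 in the direct test, and 111 and 145 passed an unadjusted p under 0.05. Pi4k2b, a phosphatidylinositol 4-kinase, had 145.5 and 153.2 CPM in shOgdh346 libraries, 75.7 and 98.5 CPM in shOgdh2081 libraries, against 137.8 and 142.2 CPM in control cells. Its level with shOgdh346 was like the controls, and both shOgdh2081 libraries lay below all other 4 libraries (log2 difference of shOgdh346 minus shOgdh2081 0.67, adjusted p = 0.000568). Sh3bgrl, which encodes a small SH3-binding protein, had 124.4 and 121.5 CPM in shOgdh346 libraries, 265.4 and 173.8 CPM in shOgdh2081 libraries, against 127.8 and 124.5 CPM in control cells. Again the shOgdh346 libraries lay beside the controls and the shOgdh2081 libraries stood apart, here above them (log2 difference -0.71, adjusted p = 0.000568). Ppp1cb, a catalytic subunit of protein phosphatase 1, had 204.7 and 190.8 CPM in shOgdh346 libraries, 303.8 and 252.9 CPM in shOgdh2081 libraries, against 211.4 and 218.2 CPM in control cells, so that here too the shOgdh2081 libraries were the high ones (log2 difference -0.43, adjusted p = 0.0315).

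Within the TCA cycle, Ogdh was the gene that moved most, and the rest changed little. Of 21 genes tested, 5 fell (1 without control replicate 1 or control replicate 2, 2 without shOgdh2081 replicate 1 or shOgdh346 replicate 1, 3 without shOgdh2081 replicate 2), and the other 16 did not pass. The median log2 fold change of the 21 was -0.05, beside 0.00 over all genes tested. Besides Ogdh these were Cs (citrate synthase, log2 fold change -0.21 ± 0.07, adjusted p = 0.0173), Suclg2 (a subunit of succinyl-CoA ligase, the next enzyme of the cycle, log2 fold change -0.29 ± 0.09, adjusted p = 0.0224), Sdhd (a membrane subunit of succinate dehydrogenase, log2 fold change -0.23 ± 0.07, adjusted p = 0.0245) and Mdh2 (malate dehydrogenase, log2 fold change -0.20 ± 0.07, adjusted p = 0.0396). Leaving out 1 library ended the call of Cs (adjusted p of 0.0549 to 0.237 without any one of control replicate 1, shOgdh2081 replicate 1, control replicate 2 and shOgdh346 replicate 2), Suclg2 (adjusted p of 0.0887 to 0.219 without any one of control replicate 1, shOgdh346 replicate 1, control replicate 2 and shOgdh2081 replicate 2), Sdhd (adjusted p of 0.0539 to 0.179 without any one of control replicate 1, control replicate 2, shOgdh346 replicate 1, shOgdh2081 replicate 2 and shOgdh2081 replicate 1) and Mdh2 (adjusted p of 0.106 to 0.361 without any one of control replicate 1, shOgdh346 replicate 1, control replicate 2 and shOgdh2081 replicate 1). Suclg2 had 81.6 and 89.9 CPM in shOgdh346 libraries, 96.5 and 96.1 CPM in shOgdh2081 libraries, against 109.95 and 109.6 CPM in control cells. Its 4 Ogdh hairpin libraries lay below both controls. The partners of Ogdh in the complex stayed near the control level: Dlst had 171.9 and 170.3 CPM in shOgdh346 libraries, 177.6 and 171.6 CPM in shOgdh2081 libraries, against 162.6 and 171.6 CPM in control cells, and its groups overlapped (log2 fold change 0.05 ± 0.08, adjusted p = 0.729). Dld gave a log2 fold change of 0.02 ± 0.10 (adjusted p = 0.918). The largest value upward was that of Idh1, the cytosolic isocitrate dehydrogenase that makes 2-oxoglutarate, which did not pass (log2 fold change 0.27 ± 0.13, adjusted p = 0.16).

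**Figure D3:**
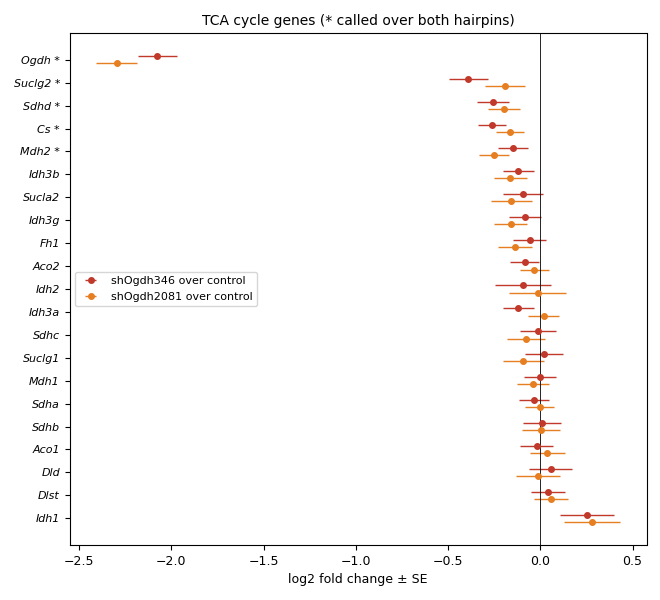
Log2 fold change over control, with its standard error, of the 21 TCA cycle genes with shOgdh346 (red) and shOgdh2081 (orange), sorted by the change over both hairpins. Ogdh stands far to the left with both hairpins (-2.08 with shOgdh346, -2.30 with shOgdh2081), the other 20 genes had values over both hairpins of -0.29 to 0.27, and an asterisk marks the 5 genes called over both hairpins.

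Genes of other 2-oxoacid dehydrogenases did not pass. Of 12 tested (pyruvate, branched-chain and 2-oxoadipate dehydrogenase subunits and the lipoate pathway), edgeR called 0, DESeq2 called 0, and 2 lay lower at an unadjusted p under 0.05. The median was -0.11. Dhtkd1, the E1 subunit of 2-oxoadipate dehydrogenase and a relative of Ogdh, gave a log2 fold change of 0.37 ± 0.29 (adjusted p = 0.415). A broader list held sources, sinks and carriers of 2-oxoglutarate and of metabolites near it. Not every member acts on 2-oxoglutarate itself. Of its 24 genes tested 2 rose and 5 fell, where DESeq2 called 1 higher and 1 lower. The median was -0.09, with -0.01 without control replicate 1 and -0.11 without control replicate 2. The rises were a share near the 7.72% over all genes tested. Among the falls were those of transaminases. Bcat2, the mitochondrial branched-chain transaminase, had 27.8 and 26.5 CPM in shOgdh346 libraries, 24.1 and 21.9 CPM in shOgdh2081 libraries, against 41.7 and 36.8 CPM in control cells. Levels in the 4 Ogdh hairpin libraries lay below both controls (log2 fold change -0.68 ± 0.15, adjusted p = 0.000758). Got2, the mitochondrial aspartate transaminase, fell (log2 fold change -0.32 ± 0.09, adjusted p = 0.0108), as did Slc25a1, the mitochondrial citrate carrier (log2 fold change -0.26 ± 0.09, adjusted p = 0.0477), and Got1, the cytosolic aspartate transaminase (log2 fold change -0.22 ± 0.07, adjusted p = 0.0296). Me1, the cytosolic malic enzyme, rose (log2 fold change 0.33 ± 0.09, adjusted p = 0.00556), and so did Glul, glutamine synthetase (log2 fold change 0.23 ± 0.07, adjusted p = 0.0209). With 1 library left out, edgeR lost the call of Bcat2 (adjusted p of 0.122 without control replicate 1), Got2 (adjusted p of 0.0596 to 0.177 without any one of control replicate 1, shOgdh2081 replicate 2 and control replicate 2), Slc25a1 (adjusted p of 0.0752 to 0.368 without any one of control replicate 1, shOgdh2081 replicate 1, control replicate 2, shOgdh346 replicate 2 and shOgdh346 replicate 1), Got1 (adjusted p of 0.0958 to 0.312 without any one of control replicate 1, shOgdh2081 replicate 2, shOgdh346 replicate 1 and control replicate 2), Me1 (adjusted p of 0.0781 without control replicate 1 and 0.0773 without control replicate 2) and Glul (adjusted p of 0.0544 to 0.304 without any one of control replicate 2, shOgdh346 replicate 1, shOgdh2081 replicate 1 and control replicate 1). The hydroxyglutarate dehydrogenase gene D2hgdh (-0.21) did not pass.

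Some genes of dioxygenases that use 2-oxoglutarate rose. Of 35 tested, 10 rose (2 without control replicate 1, 5 without control replicate 2, 6 without shOgdh346 replicate 1) and 25 did not pass, with a median of 0.20. The transcripts of these 35 genes are long, with a median of 6606 bases, and with an uncentred correction for transcript length 6 rose. P4ha1, a collagen prolyl hydroxylase subunit, had 57.3 and 46.2 CPM in shOgdh346 libraries, 53.7 and 48.3 CPM in shOgdh2081 libraries, against 33.5 and 36.4 CPM in control cells. With either Ogdh hairpin the libraries lay above both controls (log2 fold change 0.58 ± 0.13, adjusted p = 0.000808). The histone demethylase genes Kdm3a (log2 fold change 0.32 ± 0.08, adjusted p = 0.00172), Kdm3b (log2 fold change 0.40 ± 0.09, adjusted p = 0.00109) and Kdm6b (log2 fold change 0.43 ± 0.13, adjusted p = 0.0168) rose. Single libraries decided the call of P4ha1 (adjusted p of 0.0865 without control replicate 1), Kdm3a (adjusted p of 0.0772 without control replicate 1), Kdm3b (adjusted p of 0.0673 without shOgdh346 replicate 1) and Kdm6b (adjusted p of 0.0579 to 0.275 without any one of control replicate 1, shOgdh346 replicate 1 and control replicate 2). Of the HIF prolyl hydroxylases, Egln1 gave 0.22 and Egln2 0.02, neither called. In a list of hypoxia-response genes 4 of 20 rose (0 without control replicate 1, 2 without control replicate 2, shOgdh2081 replicate 2 or shOgdh346 replicate 1): P4ha1, Kdm3a, Mxi1 and the glucose transporter gene Slc2a1 (log2 fold change 0.42 ± 0.15, adjusted p = 0.0471). A left-out library ended the call of Slc2a1 (adjusted p of 0.0624 to 0.298 without any one of shOgdh346 replicate 1, control replicate 1, control replicate 2, shOgdh2081 replicate 2 and shOgdh2081 replicate 1). Vegfa (-0.30), Pdk1 (-0.16) and Ddit4 (0.23) did not pass.

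Heme synthesis starts from succinyl-CoA, and few of its genes were called. Of 15 tested, 2 rose (1 without control replicate 1) and 13 did not pass, with a median of 0.11. Uros encodes the fourth enzyme of the pathway, uroporphyrinogen III synthase. It had 52.2 and 58.2 CPM in shOgdh346 libraries, 50.4 and 46.3 CPM in shOgdh2081 libraries, against 32.9 and 26.6 CPM in control cells. The 4 Ogdh hairpin libraries lay above both controls and above all 10 controls (log2 fold change 0.74 ± 0.14, adjusted p = 5.58e-05). Fech, ferrochelatase, which inserts iron in the last step, rose less (log2 fold change 0.25 ± 0.07, adjusted p = 0.0125). The loss of 1 library ended the call of Fech (adjusted p of 0.274 without control replicate 1). The succinyl-CoA-using first enzyme, 5-aminolevulinate synthase, did not pass in either form: Alas1 gave a log2 fold change of -0.22 ± 0.17 (adjusted p = 0.411) and Alas2, the erythroid form, a log2 fold change of 0.65 ± 0.29 (adjusted p = 0.121). A further list held genes on the way to or from succinyl-CoA or for attaching it to lysine, and shares members with other lists here. Of its 13 genes tested 1 rose, Cpt1a, and 3 fell, among them Suclg2 of the TCA cycle list. DESeq2 called 0 higher and 1 lower. The median was -0.20, with -0.11 without control replicate 1 and -0.26 without control replicate 2.

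Several iron handling genes rose. Of 18 tested, 7 rose (3 without control replicate 1), 4 of them with each hairpin alone, and the median was 0.11. Hmox1, heme oxygenase 1, which breaks heme down and releases its iron, had 16.4 and 12.8 CPM in shOgdh346 libraries, 9.87 and 14.8 CPM in shOgdh2081 libraries, against 1.88 and 4.20 CPM in control cells. Both control libraries lay below all 4 Ogdh hairpin libraries, and so did all 10 controls, which spanned 0.856 to 4.20 CPM (log2 fold change 2.37 ± 0.32, adjusted p = 1.21e-07). The level was low, so that the fold change rests on few counts. Ftl1, the ferritin light chain, had 218.2 and 195.98 CPM in shOgdh346 libraries, 201.8 and 209.4 CPM in shOgdh2081 libraries, against 128.7 and 122.2 CPM in control cells. It stood above all 10 controls in all 4 libraries (log2 fold change 0.73 ± 0.08, adjusted p = 6.98e-10), though near-identical ferritin copies exist and how the authors handled reads with several matches was not stated. Slc40a1, ferroportin, the iron exporter, had 459.5 and 439.9 CPM in shOgdh346 libraries, 505.5 and 459.5 CPM in shOgdh2081 libraries, against 274.7 and 295.2 CPM in control cells. Its log2 fold change was 0.67 with shOgdh346 and 0.75 with shOgdh2081, and 0.71 ± 0.07 (adjusted p = 2.1e-11) over both.

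Erythroid product genes rose in part, while transcription factors of the GATA programme were split. Of 18 erythroid product genes tested, 11 rose (5 without control replicate 1, 6 without shOgdh2081 replicate 2, 6 with BFP negative cells of day 4 as control) and 1 fell (0 without control replicate 2), with a median of 0.46. Of the 18, 4 had all 4 Ogdh hairpin libraries above all 10 controls. Car1, carbonic anhydrase 1 of red cells, had 137.5 and 116.4 CPM in shOgdh346 libraries, 123.9 and 107.1 CPM in shOgdh2081 libraries, against 43.9 and 41.97 CPM in control cells. No control library of the series came near, the 10 controls spanning 32.02 to 56.2 CPM (log2 fold change 1.49 ± 0.11, adjusted p = 3.8e-16). Hbb-bt, an adult beta-globin gene with the near-identical copy Hbb-bs, had 38.3 and 38.5 CPM in shOgdh346 libraries, 30.7 and 34.5 CPM in shOgdh2081 libraries, against 15.7 and 14.9 CPM in control cells. Here the BFP positive controls were the low ones: BFP negative control cells of day 4 averaged 31.2 CPM and day 0 cells 32.6 CPM, and against BFP negative cells the log2 fold change was 0.23 (adjusted p = 0.172), where it was 1.23 ± 0.17 (adjusted p = 1.2e-07) against BFP positive cells. The one fall was that of Ank1, ankyrin of the red cell membrane (log2 fold change -0.30 ± 0.08, adjusted p = 0.00449). Fits with 1 library fewer dropped the call of Ank1 (adjusted p of 0.124 without control replicate 2).

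Gata2, a transcription factor of blood progenitors and mast cells that gives way to Gata1 in erythroid maturation, was lower in knockdown cells. It had 78.3 and 75.3 CPM in shOgdh346 libraries, 80.1 and 83.5 CPM in shOgdh2081 libraries, against 164.8 and 160.9 CPM in control cells. The 4 Ogdh hairpin libraries lay closer together than the gap to the controls, and below all 10 controls (log2 fold change -1.03 ± 0.09, adjusted p = 3.9e-14), with log2 fold changes of -1.07 with shOgdh346 and -0.98 with shOgdh2081. Gata1 did not pass (341.9 and 292.7 CPM in shOgdh346 libraries, 296.1 and 321.8 CPM in shOgdh2081 libraries, against 317.95 and 336.2 CPM in control cells; log2 fold change -0.04 ± 0.07, adjusted p = 0.78), and its groups overlapped. Of the 16 factors in the list, Gata2, Nfe2, Hhex, Lyl1 and Lmo2 fell (2 without control replicate 1, 3 without control replicate 2), and Myb and Runx1 rose (1 without control replicate 1). Nfe2, an erythroid and megakaryocyte bZIP factor, had 142.2 and 131.8 CPM in shOgdh346 libraries, 162.3 and 151.3 CPM in shOgdh2081 libraries, against 198.9 and 190.7 CPM in control cells. All 4 Ogdh hairpin libraries lay below both controls (log2 fold change -0.41 ± 0.08, adjusted p = 8.18e-05). Myb, which keeps progenitors dividing, had 890.6 and 887.5 CPM in shOgdh346 libraries, 879.5 and 865.9 CPM in shOgdh2081 libraries, against 693.9 and 684.1 CPM in control cells. It was above all 10 controls in all 4 libraries (log2 fold change 0.35 ± 0.06, adjusted p = 4.69e-05). Leaving out 1 library ended the call of Hhex (adjusted p of 0.133 without control replicate 1), Lyl1 (adjusted p of 0.0535 to 0.26 without any one of control replicate 1, control replicate 2, shOgdh346 replicate 2, shOgdh2081 replicate 1 and shOgdh2081 replicate 2), Lmo2 (adjusted p of 0.0905 without control replicate 1 and 0.0616 without control replicate 2) and Runx1 (adjusted p of 0.197 without control replicate 1). Klf1 (-0.06), Tal1 (-0.16) and Gfi1b (0.01) did not pass.

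Mast cell genes were few, and some rose. Of 14 mast cell, basophil and eosinophil genes 4 were at 0 in the 6 libraries, among them the tryptase gene Tpsb2, and 4 were tested, of which 2 rose. The summed level of the list was 760 to 803 CPM in Ogdh hairpin cells and 585 to 609 CPM in control cells. Ms4a2, the beta chain of the high-affinity IgE receptor, had 110.2 and 126.7 CPM in shOgdh346 libraries, 123.9 and 111.3 CPM in shOgdh2081 libraries, against 52.9 and 60.6 CPM in control cells. The 4 Ogdh hairpin libraries lay above all 10 controls (log2 fold change 1.03 ± 0.11, adjusted p = 5.95e-11). Il1rl1, the IL33 receptor ST2, had 322.1 and 321.8 CPM in shOgdh346 libraries, 342.1 and 306.6 CPM in shOgdh2081 libraries, against 228.7 and 200.5 CPM in control cells. Its groups did not overlap either (log2 fold change 0.57 ± 0.08, adjusted p = 1.96e-07). Hdc did not pass (log2 fold change 0.07 ± 0.07, adjusted p = 0.576). The letters AGATAA, the GATA motif, read on both strands, occurred in 80.0% of 5 windows, each from 250 bases before to 50 bases after a start, of the tested mast cell genes, in 41.7% of 12 windows of erythroid product genes and in 6.50% of the 10583 windows of all genes tested. Of windows of genes that rose 8.17% held it, and of those that fell 5.25%. The stretches shown hold the motif of the 2 mast cell genes that rose, in capitals (TTATCT is the same motif on the other strand), from RefSeq's GRCm38.p6 windows. The Ms4a2 stretch, on the minus strand at chr19:11623690-11623809, runs from 90 bases before the start to base 30 of the transcript, with the motif 37 and 11 bases before the start. The Il1rl1 stretch, on the plus strand at chr1:40439509-40439628, covers the 120 bases before one of its starts, with the motif 103 bases before it.
Ms4a2: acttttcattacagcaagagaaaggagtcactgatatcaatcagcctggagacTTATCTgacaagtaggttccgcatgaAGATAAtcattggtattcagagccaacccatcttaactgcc
Il1rl1: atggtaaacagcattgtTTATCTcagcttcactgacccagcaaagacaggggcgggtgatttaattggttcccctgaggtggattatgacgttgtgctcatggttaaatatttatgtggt

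Some immediate early genes and feedback genes of the ERK pathway, which growth factors switch on, fell. Of 23 tested, 5 fell and 18 did not pass, 11 lay lower at an unadjusted p under 0.05, and the median was -0.36. Egr1, the zinc finger factor among them, had 74.1 and 53.9 CPM in shOgdh346 libraries, 58.1 and 54.5 CPM in shOgdh2081 libraries, against 187.6 and 213.1 CPM in control cells. Each Ogdh hairpin library lay below both controls (log2 fold change -1.69 ± 0.10, adjusted p = 8.35e-23), with log2 fold changes of -1.53 with shOgdh346 and -1.85 with shOgdh2081. They were not below all 10 controls: untreated day 0 cells averaged 25.5 CPM and BFP negative cells of day 4 averaged 151.5 CPM. Ier2, another immediate early gene, had 42.8 and 44.5 CPM in shOgdh346 libraries, 32.9 and 39.9 CPM in shOgdh2081 libraries, against 73.9 and 84.4 CPM in control cells. It lay below all 10 controls (log2 fold change -0.95 ± 0.11, adjusted p = 3.81e-09). Etv5, an ETS factor, had 54.9 and 58.2 CPM in shOgdh346 libraries, 53.7 and 61.4 CPM in shOgdh2081 libraries, against 103.4 and 102.6 CPM in control cells. Its 4 Ogdh hairpin libraries were below all 10 controls as well (log2 fold change -0.84 ± 0.11, adjusted p = 1.11e-08). Spry4, which damps receptor signalling, fell (log2 fold change -0.87 ± 0.14, adjusted p = 7.2e-06), and so did the ERK phosphatase gene Dusp6 (log2 fold change -0.62 ± 0.20, adjusted p = 0.0238). With 1 library left out, edgeR lost the call of Dusp6 (adjusted p of 0.075 to 0.313 without any one of control replicate 2, shOgdh2081 replicate 2 and shOgdh346 replicate 1). Myc, counted in the same list, did not (291.4 and 268.7 CPM in shOgdh346 libraries, 267.6 and 314.7 CPM in shOgdh2081 libraries, against 277.9 and 278.8 CPM in control cells; log2 fold change 0.06 ± 0.07, adjusted p = 0.613). Jun (0.16) did not pass, nor did Fos, which had 0.873 and 0 CPM in shOgdh346 libraries, 1.10 and 0.215 CPM in shOgdh2081 libraries, against 1.25 and 3.26 CPM in control cells.

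Upstream of ERK, Nf1 stood out. Nf1 encodes neurofibromin, which switches RAS off, and all cells carried a hairpin against it. It had 100.8 and 118.95 CPM in shOgdh346 libraries, 109.7 and 105.1 CPM in shOgdh2081 libraries, against 56.4 and 56.4 CPM in control cells. The 4 Ogdh hairpin libraries lay above both controls and above all 10 controls, which spanned 39.2 to 66.7 CPM (log2 fold change 0.91 ± 0.11, adjusted p = 1.48e-09), with log2 fold changes of 0.91 with shOgdh346 and 0.91 with shOgdh2081. The other genes of the engineered genotype did not pass: Trp53 gave a log2 fold change of -0.16 ± 0.08 (adjusted p = 0.186) and Kmt2c a log2 fold change of 0.14 ± 0.09 (adjusted p = 0.308). In the RAS pathway list 4 of 22 genes rose (1 without control replicate 1) and 3 fell (0 without control replicate 1). Besides Nf1, the rises were those of the kinase gene Braf (log2 fold change 0.55 ± 0.12, adjusted p = 0.000693) and the exchange factors Sos2 (log2 fold change 0.42 ± 0.11, adjusted p = 0.00386) and Sos1 (log2 fold change 0.30 ± 0.11, adjusted p = 0.0486). Hras (log2 fold change -0.61 ± 0.17, adjusted p = 0.00795), the adaptor Grb2 (log2 fold change -0.32 ± 0.08, adjusted p = 0.00216) and the exchange factor Rasgrp2 (log2 fold change -0.25 ± 0.09, adjusted p = 0.0325) fell. Single libraries decided the call of Braf (adjusted p of 0.0806 without control replicate 1), Sos2 (adjusted p of 0.104 without control replicate 1 and 0.0624 without shOgdh346 replicate 1), Sos1 (adjusted p of 0.0551 to 0.288 without any one of shOgdh2081 replicate 2, control replicate 2, shOgdh346 replicate 1, control replicate 1 and shOgdh346 replicate 2), Hras (adjusted p of 0.214 without control replicate 1), Grb2 (adjusted p of 0.108 without control replicate 1) and Rasgrp2 (adjusted p of 0.115 to 0.308 without any one of shOgdh2081 replicate 2, control replicate 1, shOgdh346 replicate 1 and control replicate 2). Nras (-0.14) and Mapk3 (0.06) did not pass.

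Of receptors for the cytokines in the medium, Kit did not pass and others were low. Kit had 515.7 and 495.5 CPM in shOgdh346 libraries, 554.9 and 537.4 CPM in shOgdh2081 libraries, against 483.4 and 498.5 CPM in control cells. Its groups overlapped (log2 fold change 0.10 ± 0.07, adjusted p = 0.333). Il3ra had 25 counts, Il6st 17 counts and Il6ra 0 counts over the 6 libraries. Csf2rb, the shared beta chain of the IL3 and GM-CSF receptors, was low and rose (11.5 and 10.3 CPM in shOgdh346 libraries, 15.4 and 9.87 CPM in shOgdh2081 libraries, against 6.27 and 3.73 CPM in control cells; log2 fold change 1.08 ± 0.30, adjusted p = 0.00799). A left-out library ended the call of Csf2rb (adjusted p of 0.143 without control replicate 2 and 0.0739 without shOgdh346 replicate 1). Tgfbr3, betaglycan, had 17.5 and 14.5 CPM in shOgdh346 libraries, 17.5 and 18.2 CPM in shOgdh2081 libraries, against 36.02 and 34.04 CPM in control cells. It was below all 10 controls in the 4 Ogdh hairpin libraries (log2 fold change -1.01 ± 0.16, adjusted p = 2.8e-06), and Tgfb1, the ligand, fell too (log2 fold change -0.60 ± 0.10, adjusted p = 7.2e-06). Of 21 JAK-STAT genes, the targets Pim1 and Socs2 fell, a share near the 8.36% lower over all genes tested. Socs2, a feedback inhibitor that STAT5 induces, had 16.9 and 16.3 CPM in shOgdh346 libraries, 21.9 and 20.8 CPM in shOgdh2081 libraries, against 38.2 and 37.8 CPM in control cells. Its groups did not overlap (log2 fold change -1.01 ± 0.15, adjusted p = 1.3e-06). Pim1, a kinase gene induced by STAT5, had 13.1 and 11.98 CPM in shOgdh346 libraries, 7.68 and 12.2 CPM in shOgdh2081 libraries, against 24.7 and 23.8 CPM in control cells. It too was lower in all 4 Ogdh hairpin libraries (log2 fold change -1.004 ± 0.19, adjusted p = 6.02e-05). Cish, another STAT5 target, did not pass (log2 fold change -0.23 ± 0.23, adjusted p = 0.557), and Bcl6, a repressor gene, was low and rose (2.45 and 2.57 CPM in shOgdh346 libraries, 6.58 and 4.08 CPM in shOgdh2081 libraries, against 0.313 and 0.466 CPM in control cells; log2 fold change 3.04 ± 0.78, adjusted p = 0.00384). The loss of 1 library ended the call of Bcl6 (adjusted p of 0.167 without control replicate 1).

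In the MYC network some genes of repressors that pair with MAX rose. Of 10 genes tested, 4 rose (1 without control replicate 1, 2 without shOgdh2081 replicate 2) and 6 did not pass, with a median of 0.19. Mxd4, which binds MAX in place of MYC, had 58.7 and 74.5 CPM in shOgdh346 libraries, 41.7 and 57.9 CPM in shOgdh2081 libraries, against 35.4 and 32.2 CPM in control cells. Levels in the 4 Ogdh hairpin libraries lay above both controls (log2 fold change 0.78 ± 0.14, adjusted p = 2.8e-05). Mga (log2 fold change 0.40 ± 0.07, adjusted p = 6.44e-05), Mxd1 (log2 fold change 0.59 ± 0.15, adjusted p = 0.00399) and Mxi1 (log2 fold change 0.34 ± 0.11, adjusted p = 0.0302) were the other rises, while Max (-0.10) and Mnt (-0.04) did not pass. Fits with 1 library fewer dropped the call of Mga (adjusted p of 0.077 without control replicate 1), Mxd1 (adjusted p of 0.389 without control replicate 1 and 0.317 without shOgdh2081 replicate 2) and Mxi1 (adjusted p of 0.0767 to 0.36 without any one of control replicate 1, shOgdh2081 replicate 2, shOgdh346 replicate 1 and control replicate 2).

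About ribosomes, assembly genes fell in number, and no fall was called among genes of cytosolic ribosomal proteins (0 by edgeR, 3 at an unadjusted p under 0.05, 0 by DESeq2). Of 37 ribosome biogenesis genes, 19 fell (8 without control replicate 1, 10 without control replicate 2 or shOgdh2081 replicate 2), the other 18 did not pass, and the median was -0.21. Mrto4, an assembly factor of the large subunit, had 122.1 and 145.5 CPM in shOgdh346 libraries, 110.8 and 121.6 CPM in shOgdh2081 libraries, against 173.5 and 172.1 CPM in control cells. With either Ogdh hairpin the libraries lay below both controls (log2 fold change -0.48 ± 0.08, adjusted p = 1.83e-05). Utp20, a component of the small-subunit processome, had 75.8 and 84.7 CPM in shOgdh346 libraries, 72.4 and 89.03 CPM in shOgdh2081 libraries, against 108.4 and 117.5 CPM in control cells in the same order (log2 fold change -0.46 ± 0.10, adjusted p = 0.000278). Of 54 cytosolic ribosomal protein genes, 6 rose (0 without control replicate 2, 2 without shOgdh346 replicate 1, 3 without control replicate 1 or shOgdh2081 replicate 2), with a median of 0.05. Their median was 0.14 with shOgdh346 and -0.03 with shOgdh2081, a difference that was not tested. Many ribosomal protein genes have processed copies, so that their counts are uncertain. Of 65 mitochondrial ribosomal protein genes, 11 fell (1 without control replicate 1, 5 without shOgdh346 replicate 1, 7 without shOgdh2081 replicate 2, 20 with BFP negative cells of day 4 as control), and the median was -0.21. Mrpl42 had 34.8 and 31.7 CPM in shOgdh346 libraries, 30.7 and 30.04 CPM in shOgdh2081 libraries, against 47.6 and 50.4 CPM in control cells. All 4 Ogdh hairpin libraries lay below both controls (log2 fold change -0.60 ± 0.13, adjusted p = 0.00035).

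Translation factors and tRNA synthetases fell in part. Of 32 translation factors, 8 fell (1 without control replicate 1, 4 without shOgdh346 replicate 1, 4 with BFP negative cells of day 4 as control) and 2 rose (0 without control replicate 1, shOgdh2081 replicate 2 or shOgdh346 replicate 1, 1 without control replicate 2 or shOgdh346 replicate 2), the elongation factors Eef1a1 (log2 fold change 0.16 ± 0.06, adjusted p = 0.0452) and Eef2 (log2 fold change 0.20 ± 0.06, adjusted p = 0.0232). Leaving out 1 library ended the call of Eef1a1 (adjusted p of 0.0693 to 0.249 without any one of control replicate 2, control replicate 1, shOgdh2081 replicate 2, shOgdh346 replicate 1 and shOgdh346 replicate 2) and Eef2 (adjusted p of 0.115 to 0.388 without any one of control replicate 1, shOgdh2081 replicate 2 and shOgdh346 replicate 1). Eif5a, the protein that carries hypusine, a modification made from spermidine, had 1176 and 1066 CPM in shOgdh346 libraries, 1061 and 1219 CPM in shOgdh2081 libraries, against 1516 and 1422 CPM in control cells. Its groups did not overlap (log2 fold change -0.37 ± 0.06, adjusted p = 1.83e-05). Of 20 cytosolic tRNA synthetases, 5 fell (2 without control replicate 1). Wars, for tryptophan, had 97.7 and 81.3 CPM in shOgdh346 libraries, 92.1 and 84.3 CPM in shOgdh2081 libraries, against 125.9 and 138.5 CPM in control cells. Each Ogdh hairpin library lay below both controls (log2 fold change -0.55 ± 0.09, adjusted p = 6.94e-06), and Vars, for valine, fell as well (log2 fold change -0.35 ± 0.07, adjusted p = 0.000118).

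Some genes of one-carbon, polyamine and nucleotide synthesis fell. In the serine, glycine and folate list 8 of 16 fell (2 without control replicate 1, 4 without control replicate 2 or shOgdh346 replicate 1, 5 without shOgdh2081 replicate 2), with a median of -0.22. Phgdh, the first enzyme of serine synthesis, had 40.4 and 50.5 CPM in shOgdh346 libraries, 47.2 and 49.99 CPM in shOgdh2081 libraries, against 75.2 and 76.9 CPM in control cells. The Ogdh hairpin libraries lay below both controls (log2 fold change -0.73 ± 0.11, adjusted p = 2.06e-06). Gcsh, the lipoyl-carrying protein of glycine cleavage, had 67.96 and 65.9 CPM in shOgdh346 libraries, 67.99 and 68.7 CPM in shOgdh2081 libraries, against 104.3 and 97.9 CPM in control cells. The spread within each group was narrow (log2 fold change -0.58 ± 0.10, adjusted p = 9.81e-06). Of 13 polyamine and methionine genes, 4 fell (2 without control replicate 1): Srm, Sms, Odc1 and Mtap. With 1 library left out, edgeR lost the call of Sms (adjusted p of 0.0616 without control replicate 1) and Mtap (adjusted p of 0.0864 to 0.34 without any one of control replicate 2, shOgdh346 replicate 1, control replicate 1 and shOgdh2081 replicate 1). Srm, spermidine synthase, had 303.97 and 294.4 CPM in shOgdh346 libraries, 267.6 and 323.96 CPM in shOgdh2081 libraries, against 451.7 and 408.5 CPM in control cells. Levels in the 4 Ogdh hairpin libraries lay below both controls (log2 fold change -0.51 ± 0.07, adjusted p = 3.3e-07). Odc1, ornithine decarboxylase, the rate-limiting enzyme of the pathway, fell as well (log2 fold change -0.37 ± 0.07, adjusted p = 0.000214).

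In purine synthesis 8 of 15 genes fell (2 without control replicate 1, 5 with BFP negative cells of day 4 as control), with a median of -0.24. Gart, a trifunctional enzyme of the pathway, had 197.2 and 184.9 CPM in shOgdh346 libraries, 185.3 and 205.5 CPM in shOgdh2081 libraries, against 285.1 and 288.2 CPM in control cells. The gap between the groups was several times the spread within them (log2 fold change -0.55 ± 0.07, adjusted p = 1.18e-07). In pyrimidine and deoxynucleotide synthesis 10 of 18 fell (4 without control replicate 1), with a median of -0.23. Dut, which removes dUTP, had 265.2 and 283.3 CPM in shOgdh346 libraries, 257.7 and 218.4 CPM in shOgdh2081 libraries, against 370.9 and 358.1 CPM in control cells. Tk1, thymidine kinase 1, had 134.2 and 140.3 CPM in shOgdh346 libraries, 140.4 and 133.02 CPM in shOgdh2081 libraries, against 193.3 and 200.5 CPM in control cells. Both were below both controls in all 4 Ogdh hairpin libraries (log2 fold change -0.54 ± 0.07, adjusted p = 5.5e-08 for Dut; log2 fold change -0.54 ± 0.08, adjusted p = 8.96e-07 for Tk1). Dctd, which makes dUMP from dCMP, was among the 15 largest falls under the naming rule given below (log2 fold change -0.80 ± 0.14, adjusted p = 1.22e-05). The next list shares the falls of Phgdh and Mthfd2 with the serine, glycine and folate list. Within an amino acid stress list of ATF4 targets, 5 of 19 fell (1 without control replicate 1, 2 without control replicate 2 or shOgdh346 replicate 1, 3 without shOgdh2081 replicate 1 or shOgdh346 replicate 2, 3 with BFP negative cells of day 4 as control) and 1 rose, Slc3a2, a subunit of amino acid exchangers (log2 fold change 0.28 ± 0.07, adjusted p = 0.00557). Single libraries decided the call of Slc3a2 (adjusted p of 0.0685 to 0.114 without any one of shOgdh2081 replicate 2, control replicate 1, control replicate 2 and shOgdh346 replicate 1).

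Respiratory chain, mitochondrial import, proteasome and spliceosome core genes gave many small falls, and most of these calls were lost without control replicate 1. Of 61 oxidative phosphorylation genes 24 fell (0 without control replicate 1, 11 without shOgdh2081 replicate 2, 14 without control replicate 2), with a median of -0.21. The median was -0.16 without control replicate 1 and -0.28 without control replicate 2. Atp5j, a subunit of the ATP synthase stalk, had 168.8 and 155.8 CPM in shOgdh346 libraries, 167.8 and 157.3 CPM in shOgdh2081 libraries, against 241.2 and 205.2 CPM in control cells. The 4 Ogdh hairpin libraries lay below both controls (log2 fold change -0.47 ± 0.08, adjusted p = 2.18e-05). A left-out library ended the call of Atp5j (adjusted p of 0.077 without control replicate 1). Of 29 genes for mitochondrial genome upkeep and import 10 fell (0 without control replicate 1, 4 without shOgdh2081 replicate 2, 6 without control replicate 2 or shOgdh346 replicate 1). Of 14 mitochondrial chaperones and proteases 5 fell (3 without control replicate 2 or shOgdh346 replicate 1). Hspa9, the import motor's chaperone mortalin, had 913.7 and 890.9 CPM in shOgdh346 libraries, 877.3 and 848.9 CPM in shOgdh2081 libraries, against 1123 and 1152 CPM in control cells. It was below all 10 controls in the 4 libraries (log2 fold change -0.37 ± 0.06, adjusted p = 8.27e-06). Of 37 proteasome genes 21 fell (1 without control replicate 1, 11 without control replicate 2, 13 without shOgdh2081 replicate 2), with a median of -0.22 (-0.18 without control replicate 1). Psmb3, a subunit of the catalytic core, had 162.6 and 139.5 CPM in shOgdh346 libraries, 143.7 and 151.3 CPM in shOgdh2081 libraries, against 207.1 and 195.4 CPM in control cells. The groups did not overlap (log2 fold change -0.41 ± 0.08, adjusted p = 0.000268). The loss of 1 library ended the call of Psmb3 (adjusted p of 0.0665 without control replicate 1). In the list of Sm proteins and the PRMT5 methylosome 14 of 27 fell (0 without control replicate 1, 7 without shOgdh346 replicate 1, 9 without shOgdh2081 replicate 1 or shOgdh2081 replicate 2) and 1 rose (0 without control replicate 1, control replicate 2, shOgdh2081 replicate 1, shOgdh2081 replicate 2 or shOgdh346 replicate 1), the kinase gene Riok1, with a median of -0.24.

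DNA replication genes fell in part, and mitosis genes rose in part. Of 41 DNA replication genes 18 fell (7 without control replicate 1), the other 23 did not pass, and the median was -0.20. Rfc2, a subunit of the clamp loader of replication, had 107.96 and 80.4 CPM in shOgdh346 libraries, 94.3 and 91.4 CPM in shOgdh2081 libraries, against 143.8 and 124.97 CPM in control cells. The groups did not overlap (log2 fold change -0.49 ± 0.09, adjusted p = 5.38e-05). Fits with 1 library fewer dropped the call of Rfc2 (adjusted p of 0.0771 without control replicate 1). Pold2, a subunit of DNA polymerase delta, fell as well (log2 fold change -0.50 ± 0.10, adjusted p = 0.000196). Cdca7, a chromatin factor induced at the G1 to S transition, had 53.98 and 46.2 CPM in shOgdh346 libraries, 58.1 and 56.6 CPM in shOgdh2081 libraries, against 95.2 and 86.7 CPM in control cells. It was below all 10 controls (log2 fold change -0.75 ± 0.10, adjusted p = 1.18e-07). Of 22 G1 cyclins, kinases and inhibitors 5 fell (3 without control replicate 1, control replicate 2 or shOgdh346 replicate 1), among them Ccnd2, cyclin D2 (log2 fold change -0.43 ± 0.07, adjusted p = 1.87e-05), and Cdk2 (log2 fold change -0.42 ± 0.08, adjusted p = 7.98e-05), and 1 rose (0 without control replicate 1, shOgdh2081 replicate 2, shOgdh346 replicate 1 or shOgdh346 replicate 2). Of 40 mitosis and cytokinesis genes 15 rose (6 without control replicate 1, 9 without control replicate 2 or shOgdh2081 replicate 2), the other 25 did not pass, and the median was 0.18. Cdc25b, a phosphatase that starts mitosis, had 191.6 and 189.99 CPM in shOgdh346 libraries, 156.8 and 188.2 CPM in shOgdh2081 libraries, against 119.04 and 126.8 CPM in control cells. Aurka, a spindle pole kinase, had 146.6 and 145.5 CPM in shOgdh346 libraries, 174.4 and 153.4 CPM in shOgdh2081 libraries, against 115.6 and 102.1 CPM in control cells. Both lay above both controls, and above all 10, in the 4 Ogdh hairpin libraries (log2 fold change 0.59 ± 0.09, adjusted p = 9.53e-07 for Cdc25b; log2 fold change 0.48 ± 0.09, adjusted p = 5.29e-05 for Aurka).

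The letters TTTGAA, the cell cycle homology region read on both strands, occurred in 76.3% of 38 windows of the mitosis list and in 12.05% of the 10583 windows of all genes tested. Of all genes that rose, 14.8% of windows held it, and of all that fell, 11.2%. Cenpf and Anln are shown because both rose and hold the motif near the start. Cenpf, a kinetochore protein, had 252.96 and 292.7 CPM in shOgdh346 libraries, 253.3 and 254.9 CPM in shOgdh2081 libraries, against 192.96 and 186.98 CPM in control cells (log2 fold change 0.45 ± 0.08, adjusted p = 1.56e-05). Anln, anillin of the cleavage furrow, had 237.1 and 243.04 CPM in shOgdh346 libraries, 275.2 and 250.2 CPM in shOgdh2081 libraries, against 178.9 and 185.1 CPM in control cells (log2 fold change 0.45 ± 0.08, adjusted p = 1.59e-05). Neither pair of groups overlapped. The stretches run from 90 bases before the start to base 30 of the transcript on the minus strand, at chr1:189688057-189688176 for Cenpf, with the motif from base 3 of the transcript, and at chr9:22389177-22389296 for Anln, with it from base 22, in capitals and from RefSeq's GRCm38.p6 windows.
Cenpf: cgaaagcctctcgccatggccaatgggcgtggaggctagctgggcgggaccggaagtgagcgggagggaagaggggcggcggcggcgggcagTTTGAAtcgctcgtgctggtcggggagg
Anln: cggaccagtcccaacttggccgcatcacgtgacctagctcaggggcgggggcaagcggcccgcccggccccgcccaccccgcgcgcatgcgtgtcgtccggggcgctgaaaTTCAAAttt

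Of targets of NRF2, the factor of the antioxidant response, some rose. Hmox1 and Ftl1, counted above with iron handling, are among the rises of this list as well. Of 26 tested 10 rose (6 without control replicate 1), 9 of them with each hairpin alone, and the median was 0.15. Nqo1, a quinone reductase, had 233.4 and 223.4 CPM in shOgdh346 libraries, 190.8 and 217.8 CPM in shOgdh2081 libraries, against 134.4 and 132.9 CPM in control cells. Its 4 Ogdh hairpin libraries were above all 10 controls (log2 fold change 0.71 ± 0.09, adjusted p = 4.17e-09). Bach1, a heme-binding repressor of the same targets and itself counted in the list, had 72.7 and 77.9 CPM in shOgdh346 libraries, 89.9 and 75.5 CPM in shOgdh2081 libraries, against 50.7 and 48.5 CPM in control cells. It also rose (log2 fold change 0.62 ± 0.11, adjusted p = 3.86e-05). Of 15 antioxidant enzyme genes of another list 1 rose (0 without control replicate 1, control replicate 2, shOgdh2081 replicate 2 or shOgdh346 replicate 1), 3 fell (1 without control replicate 1) and 11 did not pass: Prdx4, a peroxiredoxin of the endoplasmic reticulum, fell (log2 fold change -0.57 ± 0.10, adjusted p = 2.64e-05), Sod2, mitochondrial superoxide dismutase, fell (log2 fold change -0.31 ± 0.08, adjusted p = 0.00557), and Cat, catalase, rose (log2 fold change 0.27 ± 0.09, adjusted p = 0.0246). Leaving out 1 library ended the call of Sod2 (adjusted p of 0.07 to 0.124 without any one of control replicate 1, shOgdh346 replicate 1 and shOgdh2081 replicate 2) and Cat (adjusted p of 0.0918 to 0.26 without any one of control replicate 1, shOgdh2081 replicate 2, control replicate 2 and shOgdh346 replicate 1). The core letters of the antioxidant response element, TGACNNNGC on both strands, occurred in 40.7% of 27 windows of the NRF2 list and in 14.5% of all.

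Lysosome and nutrient sensing genes were mixed. Of 32 lysosome and autophagy genes 8 rose (3 without control replicate 2 or shOgdh2081 replicate 2, 4 without control replicate 1 or shOgdh346 replicate 1) and 2 fell (0 without control replicate 1, 1 without shOgdh2081 replicate 2). Sqstm1, the autophagy receptor p62 and also an NRF2 target, had 293.5 and 270.4 CPM in shOgdh346 libraries, 271.95 and 285.3 CPM in shOgdh2081 libraries, against 176.7 and 181.4 CPM in control cells. The groups were far apart (log2 fold change 0.66 ± 0.08, adjusted p = 6.98e-10). Lamp2, a lysosomal membrane protein, rose (log2 fold change 0.45 ± 0.09, adjusted p = 0.000325). Among 24 mTOR and nutrient sensing genes 4 rose (1 without control replicate 1, 2 without shOgdh2081 replicate 2) and 3 fell. Flcn, folliculin, which acts on the RAG GTPases at the lysosome, had 112.9 and 114.7 CPM in shOgdh346 libraries, 118.4 and 117.4 CPM in shOgdh2081 libraries, against 75.2 and 67.1 CPM in control cells. It was above all 10 controls in the 4 libraries (log2 fold change 0.69 ± 0.10, adjusted p = 3.72e-07). Txnip, an inhibitor of glucose uptake, had 248.2 and 250.7 CPM in shOgdh346 libraries, 199.6 and 198.5 CPM in shOgdh2081 libraries, against 293.2 and 299.4 CPM in control cells. It fell (log2 fold change -0.41 ± 0.07, adjusted p = 2.29e-05), with log2 fold changes of -0.25 with shOgdh346 and -0.57 with shOgdh2081, which were not called different (adjusted p = 0.143). Eif4ebp2, a translation repressor under mTOR control, fell too (log2 fold change -0.40 ± 0.07, adjusted p = 2.06e-05).

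In glycolysis 6 of 21 genes fell (3 without control replicate 2) and 1 rose (0 without control replicate 1, control replicate 2, shOgdh2081 replicate 1, shOgdh2081 replicate 2 or shOgdh346 replicate 1). Hk1, hexokinase 1, had 746.5 and 725.7 CPM in shOgdh346 libraries, 725.9 and 754.1 CPM in shOgdh2081 libraries, against 895.3 and 961.96 CPM in control cells. All 4 Ogdh hairpin libraries lay below both controls (log2 fold change -0.33 ± 0.06, adjusted p = 0.000124). Hk2 (log2 fold change -0.54 ± 0.11, adjusted p = 0.000227) and Ldha, lactate dehydrogenase A (log2 fold change -0.35 ± 0.07, adjusted p = 9.56e-05), fell as well. Of lipid genes, Scd2, a stearoyl-CoA desaturase, had 491.6 and 451.9 CPM in shOgdh346 libraries, 484.7 and 524.6 CPM in shOgdh2081 libraries, against 760.9 and 788.04 CPM in control cells. The controls lay well above all 4 libraries (log2 fold change -0.65 ± 0.07, adjusted p = 2.1e-11). In fatty acid synthesis 4 of 14 genes fell (1 without control replicate 2, 2 without control replicate 1 or shOgdh346 replicate 1) and 1 rose (0 without control replicate 1 or control replicate 2). In sterol synthesis 2 of 24 fell (0 without control replicate 1, 1 without control replicate 2, shOgdh2081 replicate 1 or shOgdh346 replicate 2), a share near the 8.36% over all genes, and 1 rose (0 without control replicate 1 or shOgdh346 replicate 1). Acat1, mitochondrial acetoacetyl-CoA thiolase, had 123.7 and 127.5 CPM in shOgdh346 libraries, 110.8 and 124.005 CPM in shOgdh2081 libraries, against 180.1 and 159.5 CPM in control cells. It fell (log2 fold change -0.48 ± 0.08, adjusted p = 2.19e-05), and the carnitine transferase gene Cpt1a rose (log2 fold change 0.28 ± 0.08, adjusted p = 0.014). With 1 library left out, edgeR lost the call of Cpt1a (adjusted p of 0.0566 to 0.254 without any one of control replicate 1, shOgdh2081 replicate 2, shOgdh346 replicate 1 and control replicate 2).

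Of cytoskeleton genes some fell, and adhesion genes were split. Of 24 actin cytoskeleton genes 7 fell (2 without control replicate 1), with a median of -0.17. Actb, beta-actin, had 1424 and 1279 CPM in shOgdh346 libraries, 1523 and 1503 CPM in shOgdh2081 libraries, against 1970.0 and 1840.0 CPM in control cells. Each Ogdh hairpin library lay below all 10 controls (log2 fold change -0.41 ± 0.06, adjusted p = 1.35e-06). Vim, vimentin, had 309.6 and 290.97 CPM in shOgdh346 libraries, 337.7 and 352.7 CPM in shOgdh2081 libraries, against 492.4 and 501.7 CPM in control cells. It fell as well (log2 fold change -0.62 ± 0.07, adjusted p = 1.03e-10). Itgal, the integrin alpha L chain of leukocytes, was low and fell (12.6 and 13.7 CPM in shOgdh346 libraries, 12.1 and 14.6 CPM in shOgdh2081 libraries, against 27.3 and 37.8 CPM in control cells; log2 fold change -1.24 ± 0.17, adjusted p = 1.58e-07). The integrin gene Itga4 had 364.9 and 411.6 CPM in shOgdh346 libraries, 504.4 and 435.3 CPM in shOgdh2081 libraries, against 314.5 and 365.6 CPM in control cells. It rose (log2 fold change 0.31 ± 0.08, adjusted p = 0.00226), although its groups just overlapped. Single libraries decided the call of Itga4 (adjusted p of 0.256 without control replicate 1).

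Most chromatin genes did not pass. Of 45 chromatin enzymes outside the dioxygenases 7 rose (1 without control replicate 1) and 2 fell, Ezh2 (log2 fold change -0.24 ± 0.08, adjusted p = 0.0214) and Dnmt1 (log2 fold change -0.26 ± 0.07, adjusted p = 0.00489). A left-out library ended the call of Ezh2 (adjusted p of 0.0522 to 0.157 without any one of control replicate 2, control replicate 1, shOgdh2081 replicate 2 and shOgdh346 replicate 2) and Dnmt1 (adjusted p of 0.103 without control replicate 2 and 0.0541 without control replicate 1). Hdac9, a histone deacetylase, was low and rose (12.8 and 6.85 CPM in shOgdh346 libraries, 7.68 and 10.1 CPM in shOgdh2081 libraries, against 2.51 and 3.26 CPM in control cells; log2 fold change 1.90 ± 0.35, adjusted p = 6.43e-05). Of 19 histone genes 6 rose, all of them in the histone clusters, where near-identical copies make the counts uncertain, and 3 fell, the replacement histones H3f3a (-0.38) and H3f3b (-0.19) and the linker histone H1f0 (-0.46). DESeq2 called 2 higher and 3 lower. The median of the list was 0.38 with shOgdh346 and -0.03 with shOgdh2081, a difference that was not tested. Without shOgdh2081 replicate 2 the log2 fold change of Hist1h2be, among the rises, was 0.05. The loss of 1 library ended the call of H3f3a (adjusted p of 0.108 without control replicate 1 and 0.0765 without shOgdh2081 replicate 2), H3f3b (adjusted p of 0.0509 to 0.377 without any one of control replicate 1, shOgdh346 replicate 1, shOgdh2081 replicate 2, control replicate 2, shOgdh2081 replicate 1 and shOgdh346 replicate 2) and H1f0 (adjusted p of 0.0639 without control replicate 1). Lists of p53 targets and of the BCL2 family moved little, with 1 rise (0 without control replicate 1, shOgdh2081 replicate 2 or shOgdh346 replicate 1, 2 without shOgdh346 replicate 2) and 2 falls (0 without control replicate 1, 1 without control replicate 2, shOgdh2081 replicate 2 or shOgdh346 replicate 1) among 21 and 1 fall (0 without control replicate 1) among 12. In the interferon response list edgeR called 0 of 22 and DESeq2 0, and 3 passed an unadjusted p under 0.05, 2 upward and 1 downward.

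**Figure D4:**
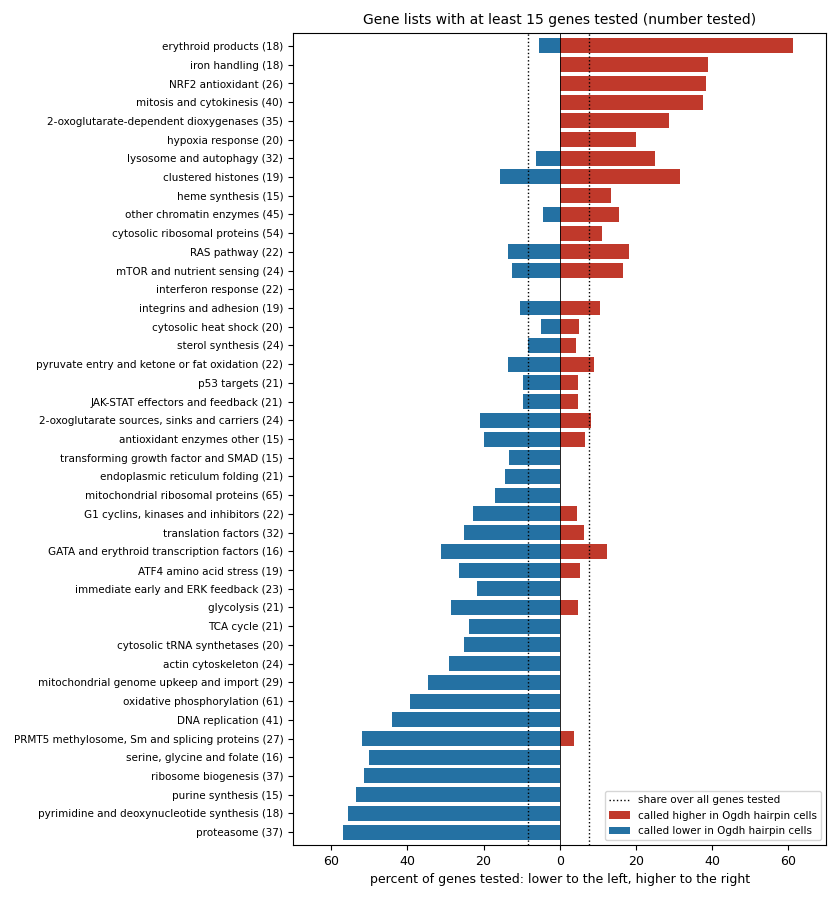
Percent of the genes tested in each list that were called higher (right) or lower (left) in Ogdh hairpin cells over both hairpins, for lists with at least 15 genes tested, whose number is in parentheses. Dotted lines mark the shares over all genes, 7.72% higher and 8.36% lower, and erythroid products and proteasome genes are at the ends.

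The largest changes that both hairpins gave were ranked among genes with a mean of at least 20 CPM. Symbols that begin with Hist or with Gm and a number, or end in Rik, were left out. The rises were led by Car1, Slc6a19, Ptpn14, Ephx2 and Hbb-bt, and the falls after Ogdh by Egr1, Gata2, Socs2, Tgfbr3 and Emilin2. Slc6a19, a transporter of neutral amino acids, had 46.6 and 36.8 CPM in shOgdh346 libraries, 40.6 and 41.8 CPM in shOgdh2081 libraries, against 14.7 and 19.1 CPM in control cells. Levels in the 4 Ogdh hairpin libraries lay above all 10 controls (log2 fold change 1.37 ± 0.16, adjusted p = 3.16e-09). Ephx2, soluble epoxide hydrolase, had 43.7 and 36.8 CPM in shOgdh346 libraries, 27.4 and 40.1 CPM in shOgdh2081 libraries, against 15.7 and 17.7 CPM in control cells. It was likewise above all 10 (log2 fold change 1.26 ± 0.17, adjusted p = 1.07e-07). Rec8, a cohesin subunit known from meiosis, had 158.1 and 172.9 CPM in shOgdh346 libraries, 149.1 and 154.9 CPM in shOgdh2081 libraries, against 75.5 and 76.5 CPM in control cells. Its spread within groups was small beside the gap (log2 fold change 1.06 ± 0.10, adjusted p = 4.47e-13). Pkhd1l1, a large membrane protein gene, had 242.3 and 241.3 CPM in shOgdh346 libraries, 231.4 and 245.9 CPM in shOgdh2081 libraries, against 120.9 and 118.9 CPM in control cells. The groups did not overlap (log2 fold change 1.01 ± 0.09, adjusted p = 6.24e-14), with log2 fold changes of 1.01 with shOgdh346 and 1.01 with shOgdh2081. Emilin2, an extracellular matrix glycoprotein, had 31.97 and 29.1 CPM in shOgdh346 libraries, 20.8 and 37.8 CPM in shOgdh2081 libraries, against 59.2 and 71.8 CPM in control cells. All 4 libraries were below all 10 controls (log2 fold change -0.98 ± 0.13, adjusted p = 3.24e-08), though the shOgdh2081 replicates differed from each other. Sh3bgrl3, a small thioredoxin-fold protein, had 26.7 and 27.4 CPM in shOgdh346 libraries, 24.1 and 31.97 CPM in shOgdh2081 libraries, against 49.8 and 48.03 CPM in control cells. It was also below all 10 (log2 fold change -0.78 ± 0.13, adjusted p = 1.21e-05).

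Among the most abundant genes that changed, mt-Co1, a mitochondrially encoded subunit of complex IV, had 10390.1 and 11274 CPM in shOgdh346 libraries, 11454 and 11343 CPM in shOgdh2081 libraries, against 8809 and 8758 CPM in control cells. It was above both day 4 BFP positive controls but overlapped the range of all 10, which spanned 5619 to 11092 CPM (log2 fold change 0.34 ± 0.07, adjusted p = 0.000133). mt-Nd1, of complex I, fell (log2 fold change -0.24 ± 0.07, adjusted p = 0.0102). Fits with 1 library fewer dropped the call of mt-Nd1 (adjusted p of 0.055 to 0.197 without any one of control replicate 1, shOgdh346 replicate 1 and control replicate 2). Bclaf1, a splicing-related nuclear protein, had 3639.6 and 3893 CPM in shOgdh346 libraries, 3856 and 3602 CPM in shOgdh2081 libraries, against 2910.4 and 2971 CPM in control cells. It was above all 10 controls (log2 fold change 0.35 ± 0.06, adjusted p = 4.3e-05). Over all genes tested, 6.89% had all 4 Ogdh hairpin libraries above all 10 controls and 8.10% below. Of the 833 genes called higher 495 were above all 10, and of the 902 called lower 555 were below all 10.

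Calls varied with transcript length and level. Genes were cut into 5 equal bins. In the bin with the shortest deposited transcript length (57 to 2369 bases) 4.21% were called higher and 11.2% lower, and in the longest bin (7395 bases and more) 14.3% were called higher and 4.31% lower. Across the 10791 genes, which are not independent replicates, Spearman's correlation of length with the log2 fold change was 0.159. In the bin with the lowest level 3.80% were called higher and 1.81% lower, against 11.6% and 16.6% in the bin with the highest. A correction for length in the fit was made with and without centring in each library; without centring the median log2 fold change of all genes was -0.03. Over both hairpins the centred correction gave 759 higher and 882 lower, and the uncentred one 670 and 1069, in place of 833 and 902. For shOgdh2081 alone these splits were 559 and 574 centred and 495 and 712 uncentred, in place of 650 and 597. For genes called with each hairpin they were 338 and 359 centred and 309 and 453 uncentred, in place of 364 and 350. With the uncentred correction 14 mitosis genes and 3 chromatin enzyme genes rose, in place of 15 and 7, and 20 oxidative phosphorylation genes and 13 mitochondrial ribosomal protein genes fell, in place of 24 and 11.

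**Figure D5:**
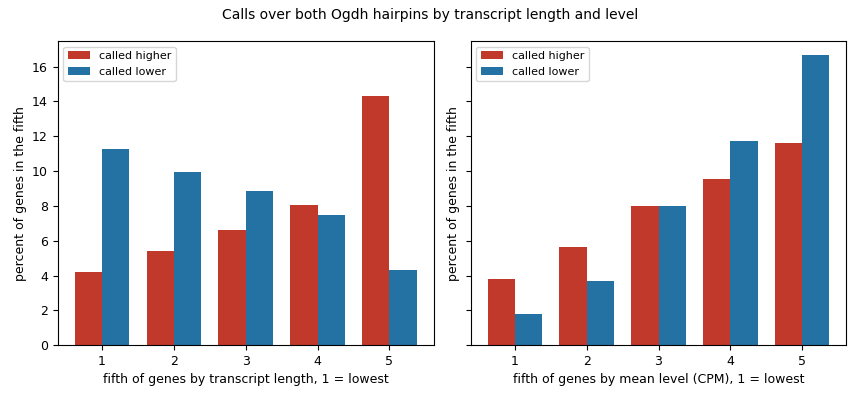
Percent of genes called higher (red) and lower (blue) in Ogdh hairpin cells over both hairpins, by bin of transcript length (left) and of mean level (right). The share called higher grows from 4.21% in the shortest bin to 14.3% in the longest, and the share called lower falls from 11.2% to 4.31%.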

How the data were processed

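RNA of the sorted cells was polyA-selected and sequenced as single-end reads. The values used are the deposited read counts per gene. Per the submitters' processing notes the authors used FastQC 0.11.5, Trimmomatic 0.36, STAR 2.6.1a and featureCounts 1.6.3 with mm10 or GRCm38, while the labels' protocols name HTSeq, an RPKM matrix and a human build. The table holds mouse genes with deposited coordinates and another unit, transcript length in bases. Strand and multiple-match settings were not stated, so that overlapping, antisense or near-identical genes are uncertain. Reads carry no molecular identifiers, and floors cover counting error only.

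Genes that passed edgeR's filterByExpr were scaled by TMM and fitted over all 14 libraries with edgeR 4.0.16 (R 4.3.3, limma 3.58.1), a quasi-likelihood test with groups as the design and Benjamini-Hochberg adjustment. The residual degrees of freedom were 7, with 57.6 prior degrees of freedom borrowed across genes, and the common biological coefficient of variation was 5.04%. Each p-value therefore rests largely on a spread shared over genes. Both hairpins were averaged against control BFP positive cells of day 4. CPM are counts per 1000000 over tested genes, TMM-scaled, and in the marker check over the whole library. The fit was run on counts simulated from its own levels and spread. Such a run can test the code, but not whether the assumptions of the fit hold for these libraries. The members and lists were chosen with earlier results of these data known. Named genes are 6 markers, the 15 largest rises and falls that both hairpins gave at a mean of at least 20 CPM, and the 6 most abundant called genes each way. Genes called between the hairpins and up to 4 called genes each way per list were named as well. The largest rises and falls leave out symbols that begin with Hist or with Gm and a number, or end in Rik. The last gene of a count of 5 was added, and Hbb-bs, a copy of a named gene, was mentioned, both after values were seen. Alternatives were DESeq2 1.42.0, its size factors, no filter, the 6 libraries alone, replicate blocks, thinned libraries, left-out libraries, BFP negative cells as controls, an adjusted p under 0.01 and, chosen after seeing the data, a length offset. Replicate numbers did not pair the libraries. A few listed genes are not reported here.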

Additional observations from a re-analysis of the deposited data

Results flagged for a closer look

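The contrast with the control was set side by side for the 2 hairpins, and 9 genes were called different between them by edgeR's quasi-likelihood test, with both libraries of each hairpin in the fit. As log2 differences of shOgdh346 minus shOgdh2081, the protein-coding genes gave 0.67 for Pi4k2b (adjusted p = 0.000568), -0.71 for Sh3bgrl (adjusted p = 0.000568), -0.43 for Ppp1cb (adjusted p = 0.0315), 0.37 for the ribosomal protein gene Rps21 (adjusted p = 0.0457) and -0.79 for Lars2, the mitochondrial leucyl-tRNA synthetase (adjusted p = 0.00982). The other 4 symbols were the mitochondrial ribosomal RNA mt-Rnr1 with -0.55 (adjusted p = 0.00495), Gm15564 with -1.29 (adjusted p = 0.00409), Gm26917 with -0.80 (adjusted p = 0.0199) and Mir6236 with -1.25 (adjusted p = 0.00636). These 4 and Lars2 were all higher with shOgdh2081. Which reads these symbols and Lars2 collected was not tested, so that a difference of the genes themselves is not shown. Lars2 had 98.7 and 154.9 CPM in shOgdh346 libraries, 235.8 and 180.9 CPM in shOgdh2081 libraries, against 116.8 and 104.5 CPM in control cells, so that the shOgdh2081 replicates lay apart from each other. Mir6236 had 21.1 and 29.1 CPM in shOgdh346 libraries, 54.8 and 54.3 CPM in shOgdh2081 libraries, against 22.9 and 14.5 CPM in control cells. Without shOgdh346 replicate 1 edgeR called 0 genes in this test, and DESeq2 with all libraries called 1.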

How the results depend on the processing

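No called log2 fold change of a named gene changed sign under the alternatives, but the larger of rises and falls did: thinning and leaving out control replicate 1 (263 rises, 198 falls) gave more rises over both hairpins, and the uncentred length correction more falls for shOgdh2081 (495 rises, 712 falls). The 1735 genes called over both hairpins became 700 with DESeq2, 705 with libraries thinned to equal depth, 882 at an adjusted p under 0.01 and 461 to 1468 with 1 library left out. For shOgdh346 the 1206 genes became 406, 436 and 563 in the same 3 settings, 693 without the shallower library of each hairpin and 369 to 1171 with 1 left out. For shOgdh2081 the 1247 genes became 460, 508 and 572, with 668 without the shallower libraries and 337 to 1195 with 1 left out. The 714 genes called with each hairpin became 257, 233 and 331, with 370 without the shallower libraries and 204 to 519 with 1 left out. Thinning gave 407 rises and 298 falls over both hairpins, 264 and 172 for shOgdh346 and 315 and 193 for shOgdh2081. The 9 genes that differed between hairpins became 20 with no filter, 1 with DESeq2, 52 with the 6 libraries alone, 14 with the replicate number as a block, 5 without the shallower libraries and 0 to 24 with 1 left out. The cause of these shifts was not tested, beyond fewer libraries or counts by construction. Same-numbered libraries deviated with correlations of -0.23 to 0.31, 4 of 21 pairs over 0.1, so that the numbers did not pair them; a replicate block gave 1850 genes over both hairpins, 1305 for shOgdh346, 1245 for shOgdh2081 and 735 for both alike, and a block by the first or later part of the library numbering 1630. BFP negative controls gave 2243, of which 1284 were among the 1735. Of 247 genes that the naming rule and its additions gave, 139 lost their call without control replicate 1, 83 without control replicate 2, 79 with DESeq2, 104 when thinned and 0 with the replicate number as a block. Depth limits genes of a few CPM, since the shallowest library held 913482 counts.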

Other observations

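Other gene groups moved in few members, and the heat shock calls were under the 7.72% higher and 8.36% lower over all genes tested. In a list of 20 cytosolic heat shock genes 1 rose and 1 fell (0 in each of 6 fits with 1 library left out). The rise was that of the inducible HSP70 gene Hspa1b, with 12.2 and 9.41 CPM in shOgdh346 libraries, 13.2 and 10.3 CPM in shOgdh2081 libraries, against 3.76 and 2.33 CPM in control cells (log2 fold change 1.81 ± 0.34, adjusted p = 5.59e-05), whose near-identical copy Hspa1a makes its counts uncertain. Of 21 genes for folding in the endoplasmic reticulum 3 fell (0 without control replicate 1, 1 without control replicate 2, shOgdh2081 replicate 2 or shOgdh346 replicate 1), among them Hspa5, the chaperone BiP, with 415.95 and 432.2 CPM in shOgdh346 libraries, 390.4 and 408.1 CPM in shOgdh2081 libraries, against 483.7 and 481.7 CPM in control cells (log2 fold change -0.23 ± 0.07, adjusted p = 0.0115). Leaving out 1 library ended the call of Hspa5 (adjusted p of 0.0633 to 0.167 without any one of control replicate 1, control replicate 2 and shOgdh346 replicate 1). Of 7 pentose phosphate genes 2 fell (0 without control replicate 1 or control replicate 2, 1 without shOgdh2081 replicate 1, shOgdh2081 replicate 2 or shOgdh346 replicate 1), among them Tkt, transketolase (log2 fold change -0.23 ± 0.07, adjusted p = 0.00952). With 1 library left out, edgeR lost the call of Tkt (adjusted p of 0.0537 to 0.132 without any one of control replicate 2, control replicate 1 and shOgdh2081 replicate 1).

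Among markers of other cells, the summed level of 10 stromal and endothelial genes was 33.9 to 42.1 CPM in Ogdh hairpin cells and 48.2 to 49.8 CPM in control cells. The list did not move as 1: of 5 genes tested 2 fell, the other 3 had values upward that were not called, and the median was 0.07. Col1a2, a collagen I chain, had 15.02 and 12.8 CPM in shOgdh346 libraries, 8.77 and 18.9 CPM in shOgdh2081 libraries, against 26.9 and 24.7 CPM in control cells (log2 fold change -0.72 ± 0.18, adjusted p = 0.00246). Single libraries decided the call of Col1a2 (adjusted p of 0.137 without control replicate 1). The 12 megakaryocyte genes summed to 76.6 to 85.9 CPM in Ogdh hairpin cells and 73.5 to 75.8 CPM in control cells, with Vwf, von Willebrand factor, at 29.000 and 21.4 CPM in shOgdh346 libraries, 25.2 and 25.5 CPM in shOgdh2081 libraries, against 13.8 and 15.9 CPM in control cells (log2 fold change 0.85 ± 0.18, adjusted p = 0.000507). Vwf was the 1 call among 4 genes tested, of which 2 had values upward and 2 downward. A left-out library ended the call of Vwf (adjusted p of 0.0826 without control replicate 1). The 20 monocyte and macrophage genes, 10 of them at 0, summed to 108 to 123 CPM in Ogdh hairpin cells and 76.4 to 94.0 CPM in control cells. Zeb2, which other cells also express, made up most of this sum, with 58.3 to 104.0 CPM over the 6 libraries, while Csf1r had 2 counts and Lyz2, Itgam and Irf8 had 0. What part such cells had in the results was not tested.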
